A study of Mus musculus with 20 samples.

Results

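The expression of 37 endothelial and angiogenic genes was examined in gastrocnemius muscle of Opg-/- and WT mice after denervation. The genes were the rows of the all-gene table named for an endothelial surface protein, a vessel growth factor or its receptor, an endothelial transcription factor, or a protein of the capillary wall. All 37 were found among the 32285 genes of the table, on 18 chromosomes, and all 37 passed the filter on low values that 17948 genes passed. The libraries fell into 4 groups of 5. Opg-/- den was the right gastrocnemius of 12-week-old male mice with a homozygous germline knockout of Tnfrsf11b (Opg, the gene of osteoprotegerin), taken on day 7 after the sciatic nerve had been transected. Opg-/- sham was the left gastrocnemius of such mice, where the nerve had been exposed and left intact. WT den and WT sham were the same limbs of 12-week-old male WT mice from the same supplier. Each sham muscle was therefore the other hindlimb of an operated animal, not the muscle of an animal that had not been operated on, and the knockout was a single commercial line with a germline deletion, present in every tissue. The numbers of the libraries did not name the mice.

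Capillaries run along every muscle fibre, and their endothelial cells express surface proteins, receptors and transcription factors that other cells of the muscle express little or not at all. Muscle fibres themselves are a main source of the ligand VEGF-A, which acts on the endothelial receptors VEGFR2 (Kdr) and VEGFR1 (Flt1), while the angiopoietins act on the receptor Tie2 (Tek) and keep vessels stable or loosen them. Transcription factors of the ETS and SOXF families bind many endothelial genes, and a decline of capillaries is a known feature of muscle that has lost its nerve.

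The values were read counts per gene divided by a size factor for each library, referred to here as normalized counts, and a difference is given as log2 fold change on the log2(value + 1) scale ± its standard error, with the adjusted p-value of limma. The counts of WT sham 1 and WT sham 2 agreed within sampling noise, with a chi-square per degree of freedom of 0.324 against 6.76 to 25.6 in the other 39 pairs of one group. They were averaged and counted as 1 sample (n = 4 for WT sham and 5 for the other groups), and the value listed first for WT sham is their mean. The libraries held 15186247 to 20102295 assigned reads, and the member with the fewest reads, Angpt2, had 20 to 72 reads in a library. Tnfrsf11b itself averaged 5.98 ± 3.75 normalized counts in Opg-/- den, against 8.78 ± 1.99 in Opg-/- sham, and 4.41 ± 1.90 in WT den, against 2.75 ± 1.90 in WT sham. It was thus not lower in the libraries labelled Opg-/- than in WT (log2 fold change 0.29 ± 0.42 in den, adjusted p = 0.958; 1.48 ± 0.44 in sham, adjusted p = 0.19). The value is for the whole gene and the deleted part is not given in the sources used here, so it did not check the genotype labels. For its mice the study reports genotyping by PCR on tail DNA and a western blot of OPG protein in both genotypes. Muscle fibre genes were the most abundant of the marker lists in all 4 groups, with 9 markers summing to 895489.9 to 1212114 normalized counts in Opg-/- den, against 2754199 to 3576214 in Opg-/- sham, and 942229 to 1262059.9 in WT den, against 2404458 to 3149617 in WT sham.

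Promoter sequences are shown for 5 members, chosen by an ETS motif, because the set holds 2 ETS factors, Erg and Ets1. RefSeq promoters (GRCm38.p6) were matched by symbol for 19 of the 37 members and gave 25 start sites. The 250 bases before each start site were searched on both strands for AGGAAG, the core of many ETS sites, which reads CTTCCT on the other strand. It was present in 11 of the 25 promoters (44.0%), against 29.5% of all 32851 promoters of the same length. In 4 of the 25 it was present at least 2 times, against 6.25% of all promoters. The 3 member promoters with the motif at 2 positions and the 1 with 3 positions are printed 5′ to 3′ in the direction of the gene, with the motif in capitals, and Kdr is added as a receptor gene without it. They are the first of 3 Egfl7 promoters (chr2:26580833-26581082, plus strand), Emcn (chr3:137340828-137341077, plus strand), Eng (chr2:32646345-32646594, plus strand), Flt1 (chr5:147726012-147726261, minus strand) and Kdr (chr5:75978456-75978705, minus strand).
Egfl7: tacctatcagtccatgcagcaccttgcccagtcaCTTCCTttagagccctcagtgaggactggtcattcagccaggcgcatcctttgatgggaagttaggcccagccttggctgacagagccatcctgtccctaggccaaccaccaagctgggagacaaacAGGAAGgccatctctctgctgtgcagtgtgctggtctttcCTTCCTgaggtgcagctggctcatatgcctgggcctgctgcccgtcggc
Emcn: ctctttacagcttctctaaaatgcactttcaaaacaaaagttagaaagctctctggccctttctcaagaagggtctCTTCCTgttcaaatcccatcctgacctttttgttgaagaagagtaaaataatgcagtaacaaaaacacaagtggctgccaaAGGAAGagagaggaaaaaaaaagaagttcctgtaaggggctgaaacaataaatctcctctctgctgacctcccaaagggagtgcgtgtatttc
Eng: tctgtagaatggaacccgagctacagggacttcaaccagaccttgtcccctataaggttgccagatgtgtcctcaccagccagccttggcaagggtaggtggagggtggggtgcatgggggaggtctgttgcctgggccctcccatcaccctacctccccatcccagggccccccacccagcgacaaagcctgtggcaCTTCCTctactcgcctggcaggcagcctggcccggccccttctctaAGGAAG
Flt1: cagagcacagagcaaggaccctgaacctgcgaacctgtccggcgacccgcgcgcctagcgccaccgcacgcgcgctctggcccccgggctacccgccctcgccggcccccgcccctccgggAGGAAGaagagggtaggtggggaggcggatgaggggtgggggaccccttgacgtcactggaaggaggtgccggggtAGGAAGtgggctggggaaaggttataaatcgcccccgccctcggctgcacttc
Kdr: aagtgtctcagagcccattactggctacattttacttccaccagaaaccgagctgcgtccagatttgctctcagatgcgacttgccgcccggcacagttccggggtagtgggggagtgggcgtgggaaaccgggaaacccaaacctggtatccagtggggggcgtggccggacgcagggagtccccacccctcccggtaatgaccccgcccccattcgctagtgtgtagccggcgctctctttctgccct
The motif begins 216, 89 and 49 bases before the start site of Egfl7, 174 and 93 bases before that of Emcn, 52 and 6 bases before that of Eng, and 129 and 53 bases before that of Flt1. ACGTG, the core of hypoxia response elements, was in 3 of the 25 promoters (12%, against 16.6% of all), the GATA motif TTATCT in 2 (8.0%, against 9.99%), and the SOX motif ATTGTT in 4 (16%, against 9.42%). Matches of different motifs can overlap at their ends, and CACGTG holds ACGTG on both strands. A match describes letters only and is no evidence of binding.

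Nearly the whole set was lower in denervated muscle in both genotypes. The set was chosen with earlier results of these data known, so its counts beside the shares of all genes are a description. In Opg-/- mice 35 of the 37 genes were lower in den than in sham at an adjusted p under 0.05, where 26.4% of all genes were lower, and 0 were higher, where 28.6% of all genes were higher. In WT mice 36 of the 37 were lower, where 25.7% of all genes were lower, and 0 were higher, where 26.9% were. The 35 genes lower in Opg-/- were all lower in WT too. The median log2 fold change of the 37 genes was −1.07 in Opg-/- and −1.0 in WT, beside medians of 0.021 and −0.002 over all genes tested. Denervated muscle kept between 29.9% (Vegfa) and 82.2% (Angpt2) of the sham level in Opg-/- mice, and between 28.7% (Vegfa) and 86.7% (Aplnr) in WT mice. A fall of more than 1 on the log2 scale was passed by 22 members in Opg-/- (10.2% of all genes) and by 18 in WT (10.2% of all genes), 16 of them in both. Every den library was below every sham library for 35 members in Opg-/- (19.4% of all genes) and for 34 in WT (21.5% of all genes). The exceptions were Angpt2 and Aplnr in both genotypes and Cldn5 in WT.

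**Figure D1:**
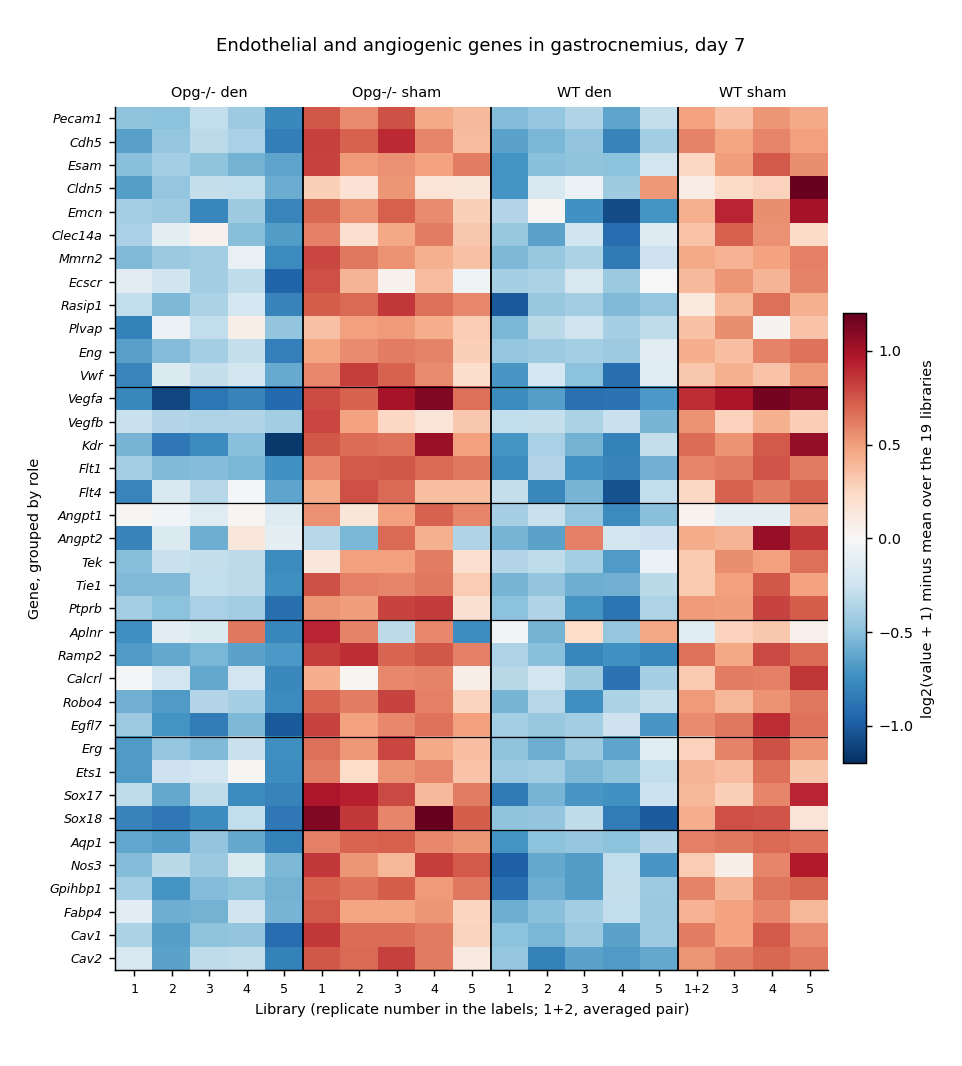
Level of each of the 37 genes (rows, grouped by role) in each of the 19 libraries after averaging (columns, den left of sham within each genotype), as log2 normalized count relative to the mean of the gene over all libraries, with the ends of the colour scale clipped. The den columns are below the mean and the sham columns above it in most cells of the map, and the libraries on the other side are mainly in the rows of Angpt1, Angpt2 and Aplnr.

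**Figure D2:**
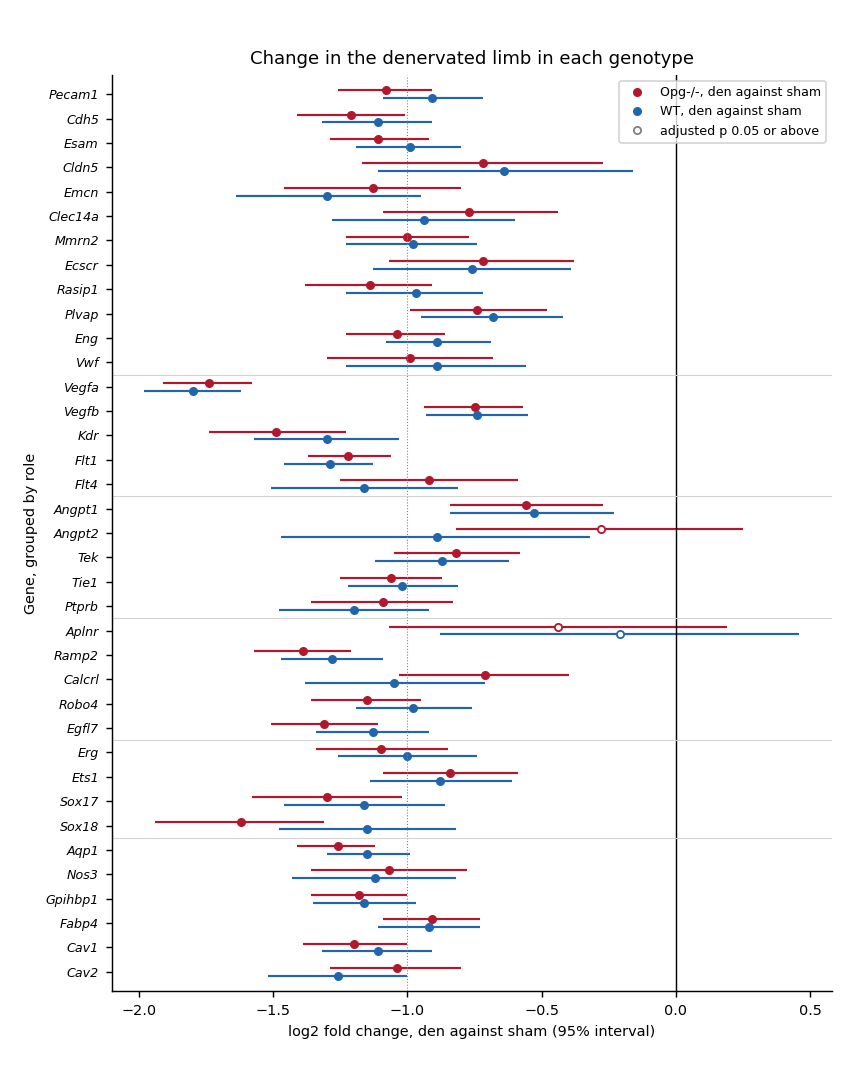
Log2 fold change of den over sham for each of the 37 genes with its 95% interval (limma), in Opg-/- and WT mice. All 37 estimates are below 0 in both genotypes, from −1.74 to −0.28 in Opg-/- and from −1.80 to −0.21 in WT, and the intervals of Angpt2 in Opg-/- and of Aplnr in both genotypes reach 0.

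How far the genes fell depended on the scaling of the libraries. The normalized counts of a whole library summed to 14299841 to 15564646 in Opg-/- den, against 19099963 to 22056156 in Opg-/- sham, and to 14142249 to 15931124 in WT den, against 17865929 to 20702152 in WT sham. The 10 most abundant genes held 10.29% to 13.13% of the values in Opg-/- den, against 24.09% to 27.01% in Opg-/- sham, and 11.18% to 13.26% in WT den, against 22.66% to 25.3% in WT sham. With every library set to the same total, the median of all genes moved up by 0.408 in Opg-/- and by 0.276 in WT. The members were then lower in 29 of 37 cases in Opg-/- (13.1% of all genes were lower and 48.7% higher) and in 33 of 37 in WT (15.5% lower and 40.3% higher), and again 0 were higher. Their median was −0.62 in Opg-/- and −0.70 in WT on that scale, which was −1.05 and −0.97 relative to the median of all genes. Because whole muscle was sequenced, fewer cells that express a gene and less RNA of it per cell cannot be told apart. Those cells are not endothelial for every member, since muscle fibres are a main source of VEGF-A.

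The 12 adhesion, junction and surface proteins were lower in both genotypes without exception, and the medians of their changes were −1.02 in Opg-/- and −0.92 in WT. With equal library totals 8 of the 12 were lower in Opg-/- and 11 in WT. Cdh5 encodes VE-cadherin, the adhesion protein of endothelial junctions. It had normalized counts of 842, 957, 1063, 1007 and 743 in Opg-/- den, against 2337, 2159.8, 2462, 1991 and 1724 in Opg-/- sham, and 846, 901, 955, 756 and 988 in WT den, against 1998, 1839, 1980.3 and 1858 in WT sham. Its log2 fold change was −1.21 ± 0.10 in Opg-/- (adjusted p = 1.58e-11) and −1.11 ± 0.10 in WT (adjusted p = 3.16e-10), and den and sham libraries did not overlap. Emcn encodes endomucin, a sialoglycoprotein on the surface of capillary and venous endothelium. Its values were 101, 99.1, 77.7, 100.1 and 77 in Opg-/- den, against 218, 196, 221, 200.1 and 164 in Opg-/- sham, and 105, 136, 81, 63.4 and 81.3 in WT den, against 181, 254, 199 and 270.1 in WT sham. It fell by 1.13 ± 0.16 on the log2 scale in Opg-/- (adjusted p = 5.97e-07) and by 1.30 ± 0.17 in WT (adjusted p = 1.74e-07), and its 2 WT den values above 100 were still below the lowest WT sham value of 181. Rasip1 encodes a Ras-interacting protein needed for vessels to form a lumen. It had 306, 258, 289, 324 and 216 in Opg-/- den, against 622, 604, 678, 596 and 563 in Opg-/- sham, and 186, 274, 281, 261 and 273 in WT den, against 407, 495, 595 and 507 in WT sham. The log2 fold change was −1.14 ± 0.12 in Opg-/- (adjusted p = 1.96e-09) and −0.97 ± 0.12 in WT (adjusted p = 1.23e-07). WT den 1 was low within its group, and the groups did not overlap. The exons of Rasip1 share 20.4% of their bases with Izumo1 on the same strand and 15.6% with A030001D20Rik on the opposite strand, and the libraries carried no strand, so its values are uncertain to that extent.

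Pecam1, the classical endothelial adhesion protein CD31, averaged 856 ± 99.1 in Opg-/- den, against 1812 ± 211 in Opg-/- sham, and 881 ± 81.4 in WT den, against 1651 ± 84.3 in WT sham (SD), with a log2 fold change of −1.08 ± 0.08 in Opg-/- (adjusted p = 6.62e-12) and −0.91 ± 0.09 in WT (adjusted p = 9.75e-10). Of the junction proteins, Esam changed by −1.11 ± 0.09 in Opg-/- and −0.99 ± 0.09 in WT. Eng (endoglin, a co-receptor for TGF-β family ligands) changed by −1.04 ± 0.09 in Opg-/- and −0.89 ± 0.10 in WT, and Vwf (von Willebrand factor) by −0.99 ± 0.15 in Opg-/- and −0.89 ± 0.16 in WT. Mmrn2, a matrix protein that binds Clec14a, changed by −1.0 ± 0.11 in Opg-/- and −0.98 ± 0.12 in WT, and Clec14a itself by −0.77 ± 0.16 in Opg-/- and −0.94 ± 0.17 in WT. Each of these passed the test in both genotypes, but with equal totals Clec14a did not in Opg-/- (−0.32, adjusted p = 0.103). The smallest falls of this role were those of Ecscr (−0.72 ± 0.17 in Opg-/- and −0.76 ± 0.18 in WT), of Plvap, which forms the diaphragms of caveolae (−0.74 ± 0.12 in Opg-/- and −0.68 ± 0.13 in WT), and of Cldn5. With equal totals Ecscr (−0.28, adjusted p = 0.161) and Plvap (−0.28, adjusted p = 0.0748) did not pass in Opg-/-, and Cldn5 passed in neither genotype (−0.27 in Opg-/-, adjusted p = 0.304, and −0.33 in WT, adjusted p = 0.24). Cldn5, the claudin of endothelial tight junctions, averaged 162 ± 19.2 in Opg-/- den, against 268 ± 31.8 in Opg-/- sham, and 205 ± 70.1 in WT den, against 326 ± 142 in WT sham (SD). Its log2 fold change was −0.72 ± 0.21 in Opg-/- (adjusted p = 0.00765) and −0.64 ± 0.23 in WT (adjusted p = 0.0239), and in WT its den and sham libraries overlapped. WT sham 5 held 537 normalized counts of Cldn5, beside 236 to 269.5 in the other WT sham libraries, and without it the WT change was −0.37 and no longer passed the test. The WT call was also lost without WT den 1 (−0.50) and without WT den 4 (−0.57).

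In the VEGF pathway all 5 ligands and receptors were lower in both genotypes, also with equal library totals, and the median was −1.22 in Opg-/- and −1.29 in WT. Vegfa, the main growth factor for endothelium, had the largest estimated change of the members in both genotypes. It had normalized counts of 1411, 1127, 1318, 1377 and 1257 in Opg-/- den, against 4143, 3931, 4763, 5207 and 3797 in Opg-/- sham, and 1427, 1520.1, 1293, 1304 and 1491 in WT den, against 4458, 4732, 5318 and 5143 in WT sham. The log2 fold change was −1.74 ± 0.08 in Opg-/- (adjusted p = 8.49e-17) and −1.80 ± 0.09 in WT (adjusted p = 2e-16), which left 29.9% of the sham level in Opg-/- and 28.7% in WT. The highest Vegfa value of a den library, 1520.1 in WT den 2, was below the lowest of a sham library, 3797 in Opg-/- sham 5. Kdr encodes VEGFR2, the receptor that carries most of the VEGF-A signal. Its values were 224, 182, 194, 233 and 147 in Opg-/- den, against 554, 526, 518, 677 and 463 in Opg-/- sham, and 201, 252, 222, 188 and 270.2 in WT den, against 526, 479, 551 and 684 in WT sham. The log2 fold change was −1.49 ± 0.13 in Opg-/- (adjusted p = 9e-11) and −1.30 ± 0.13 in WT (adjusted p = 3.99e-09), and 35.7% of the sham level was left in Opg-/- and 40.6% in WT. No den library reached a sham library in either genotype. Flt1 encodes VEGFR1, which binds VEGF-A tightly and also exists as a soluble trap. It had 1115, 1019, 1024, 1005 and 887 in Opg-/- den, against 2192, 2443, 2469, 2349.7 and 2278 in Opg-/- sham, and 864, 1151, 886, 842 and 989 in WT den, against 2211, 2274, 2484 and 2272 in WT sham, with a log2 fold change of −1.22 ± 0.08 in Opg-/- (adjusted p = 4.77e-14) and −1.29 ± 0.08 in WT (adjusted p = 5.88e-14). Flt1, whose promoter printed above holds AGGAAG, and Kdr, whose printed promoter does not hold these exact letters, both fell past −1. A relation between the motif and the change was not tested.

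Vegfb, a relative of Vegfa that binds Flt1 and is abundant in muscle, fell less than Vegfa. It averaged 897 ± 33.7 in Opg-/- den, against 1532 ± 283 in Opg-/- sham, and 896 ± 71.2 in WT den, against 1499 ± 129.9 in WT sham (SD), and its log2 fold change was −0.75 ± 0.09 in Opg-/- (adjusted p = 2.25e-08) and −0.74 ± 0.09 in WT (adjusted p = 1.02e-07). The log2 ratio of Vegfa to Vegfb within a library averaged 0.53 ± 0.11 in Opg-/- den, against 1.52 ± 0.39 in Opg-/- sham, and 0.65 ± 0.18 in WT den, against 1.71 ± 0.20 in WT sham (SD). This ratio does not depend on the scaling of the library, and its den and sham ranges did not overlap in either genotype (0.33 to 0.63, against 1.06 to 2.03, in Opg-/-; 0.46 to 0.94, against 1.42 to 1.87, in WT). Flt4, which encodes VEGFR3, a receptor for VEGF-C and VEGF-D, averaged 84.3 ± 18.5 in Opg-/- den, against 158 ± 21.7 in Opg-/- sham, and 73.4 ± 16 in WT den, against 164 ± 23.1 in WT sham (SD), with a log2 fold change of −0.92 ± 0.16 in Opg-/- (adjusted p = 1.79e-05) and −1.16 ± 0.17 in WT (adjusted p = 1.26e-06).

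Of the angiopoietins, the Tie receptors and their phosphatase, 4 of 5 were lower in Opg-/- and 5 of 5 in WT (medians −0.82 and −0.89), and with equal library totals 3 of 5 in each genotype. Ptprb encodes VE-PTP, the endothelial phosphatase that holds Tie2 in check. It had normalized counts of 876, 827, 889, 873 and 622 in Opg-/- den, against 1683, 1653, 2040.1, 2077 and 1318 in Opg-/- sham, and 828, 907, 713, 634 and 898 in WT den, against 1664, 1652, 2046 and 1931 in WT sham, and changed by −1.09 ± 0.13 in Opg-/- (adjusted p = 2.54e-07) and −1.2 ± 0.14 in WT (adjusted p = 1.71e-07). Opg-/- den 5 was low within its group at 622, and no den library reached a sham library. Tie1, the co-receptor of Tie2, had 424, 424, 501, 492 and 368 in Opg-/- den, against 1043, 932, 922, 954 and 758 in Opg-/- sham, and 417, 441, 408, 411 and 489 in WT den, against 765, 865, 1032 and 859 in WT sham. It changed by −1.06 ± 0.09 in Opg-/- (adjusted p = 6.57e-11) and −1.02 ± 0.10 in WT (adjusted p = 6.16e-10), without overlap. Tek (Tie2) changed by −0.82 ± 0.12 in Opg-/- and −0.87 ± 0.12 in WT and passed the test in both genotypes. Angpt1 encodes the activating ligand of Tie2, made by cells around the vessel. Its values were 91.6, 88.6, 81.8, 92.4 and 81.4 in Opg-/- den, against 133, 100.5, 128, 149 and 137 in Opg-/- sham, and 68.7, 75.1, 65.7, 53.2 and 63.7 in WT den, against 93.7, 83.5, 83.8 and 121 in WT sham. Its log2 fold change was −0.56 ± 0.14 in Opg-/- (adjusted p = 0.00115) and −0.53 ± 0.15 in WT (adjusted p = 0.00302), and the den libraries lay below the sham libraries of the same genotype. With equal totals Angpt1 did not pass in either genotype. Angpt2 encodes the ligand that antagonizes Tie2 in many settings and is stored in endothelial cells. It had 20.8, 32.8, 24.3, 40.7 and 34.1 in Opg-/- den, against 29.1, 25.1, 59.9, 50.3 and 28.6 in Opg-/- sham, and 24.9, 23.4, 56.9, 31.7 and 31.1 in WT den, against 50.8, 49.4, 77.3 and 67.3 in WT sham. Its log2 fold change was −0.28 ± 0.26 in Opg-/- (95% interval −0.82 to 0.25, adjusted p = 0.381) and −0.89 ± 0.28 in WT (adjusted p = 0.00792). The den and sham values of Angpt2 overlapped in both genotypes, with equal totals the WT call was lost and the Opg-/- estimate was 0.16. The exons of Angpt1 share 14.2% of their bases with Gm17473 on the opposite strand.

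Among the other signalling genes 4 of 5 were lower in each genotype, with medians of −1.15 in Opg-/- and −1.05 in WT. Ramp2, the partner protein that turns Calcrl into an adrenomedullin receptor, had normalized counts of 229.5, 239.6, 252, 236 and 228 in Opg-/- den, against 656, 683, 599, 617 and 560 in Opg-/- sham, and 285, 259.7, 213, 222 and 213 in WT den, against 581, 507, 639 and 587 in WT sham. It changed by −1.39 ± 0.09 in Opg-/- (adjusted p = 5.62e-14) and −1.28 ± 0.09 in WT (adjusted p = 1.56e-12), and the sham libraries of both genotypes were all above 500 while the den libraries were all below 300. Ramp2 shares 33.4% of its exonic bases with Vps25 on the same strand. Calcrl, its receptor, changed by −0.71 ± 0.15 in Opg-/- and −1.05 ± 0.16 in WT and with equal totals did not pass in Opg-/-. Egfl7 encodes a protein secreted by endothelium into the matrix of new vessels. Its values were 452, 371, 340.1, 419.9 and 302 in Opg-/- den, against 1072, 854, 909.9, 961 and 858 in Opg-/- sham, and 461, 446, 457, 513 and 376 in WT den, against 906, 949, 1129.7 and 956 in WT sham. It changed by −1.31 ± 0.10 in Opg-/- (adjusted p = 2.14e-12) and −1.13 ± 0.10 in WT (adjusted p = 2.13e-10). Robo4, an endothelial receptor that steadies the vessel wall, had 308, 287, 360.3, 349 and 271 in Opg-/- den, against 750.4, 704, 811, 701 and 555 in Opg-/- sham, and 313, 363, 277, 354 and 379 in WT den, against 655, 607, 671 and 714 in WT sham, and changed by −1.15 ± 0.10 in Opg-/- (adjusted p = 4.82e-11) and −0.98 ± 0.11 in WT (adjusted p = 5.18e-09). Neither Egfl7 nor Robo4 had a den library as high as a sham library. Aplnr, the receptor for apelin, was the member that passed the test in neither genotype. It had 40.7, 62.9, 60.7, 107 and 39.4 in Opg-/- den, against 129.7, 104, 55.1, 103 and 40.6 in Opg-/- sham, and 67, 45.9, 80.2, 49.4 and 94.9 in WT den, against 61.9, 83.5, 85.9 and 71.7 in WT sham. Its log2 fold change was −0.44 ± 0.30 in Opg-/- (95% interval −1.07 to 0.19, adjusted p = 0.23) and −0.21 ± 0.32 in WT (95% interval −0.88 to 0.46, adjusted p = 0.626). Its values spread widely within the groups, from 40.6 to 129.7 in Opg-/- sham, and without Opg-/- sham 5 the Opg-/- change was −0.68 and passed.

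The 4 transcription factors were lower in both genotypes, also with equal totals, with medians of −1.2 in Opg-/- and −1.07 in WT. Sox18, a SOXF factor of endothelium and lymphatic vessels, had normalized counts of 108, 104, 112, 154 and 104 in Opg-/- den, against 409.7, 340.5, 285, 459 and 314 in Opg-/- sham, and 135, 136, 153, 105 and 94.1 in WT den, against 257, 325, 319 and 211 in WT sham. It changed by −1.62 ± 0.15 in Opg-/- (adjusted p = 5.71e-10) and −1.15 ± 0.16 in WT (adjusted p = 8.22e-07). The highest den value was 154 in Opg-/- and 153 in WT, below the lowest sham values of 285 and 211. Sox17, its relative of arterial endothelium, had 281, 226, 280, 204 and 199 in Opg-/- den, against 681, 665, 603, 455 and 533 in Opg-/- sham, and 192, 235, 213, 209.9 and 290.2 in WT den, against 458, 423, 521 and 654 in WT sham, and changed by −1.30 ± 0.14 in Opg-/- (adjusted p = 1.29e-08) and −1.16 ± 0.14 in WT (adjusted p = 2.4e-07). Its exons share 16.8% of their bases with Gm37587 on the opposite strand. Erg, an ETS factor that keeps endothelial identity, had 104, 121, 115, 138 and 99.8 in Opg-/- den, against 264, 240, 291, 229 and 215 in Opg-/- sham, and 119, 111, 122, 107 and 151 in WT den, against 202, 252, 284 and 243 in WT sham, and changed by −1.10 ± 0.12 in Opg-/- (adjusted p = 6e-09) and −1.0 ± 0.13 in WT (adjusted p = 1.12e-07). Both were without overlap of den and sham. Ets1, another ETS factor that other cell types express too, changed by −0.84 ± 0.12 in Opg-/- and −0.88 ± 0.13 in WT and passed the test in both genotypes.

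Genes of the capillary wall were lower in 6 of 6 cases in both genotypes, also with equal totals, with medians of −1.12 in Opg-/- and −1.14 in WT. Aqp1, the water channel of capillary endothelium, had normalized counts of 5429.5, 5284, 6032, 5472 and 4758 in Opg-/- den, against 12752, 13601, 13708, 12476 and 12069.6 in Opg-/- sham, and 5089, 5939, 6059, 5948 and 6572 in WT den, against 12703, 12959, 13433 and 13153 in WT sham. It changed by −1.26 ± 0.07 in Opg-/- (adjusted p = 3.04e-15) and −1.15 ± 0.07 in WT (adjusted p = 1.23e-13), with the smallest standard errors of the set. Cav1 and Cav2 encode caveolins, which shape the caveolae of endothelium and other cells, and are neighbours on chromosome 6. Cav1 had 1297, 1063, 1207, 1215 and 894 in Opg-/- den, against 3026, 2679, 2684, 2591 and 2028 in Opg-/- sham, and 1196, 1154, 1239.9, 1078 and 1248 in WT den, against 2588, 2349, 2808 and 2497 in WT sham, and changed by −1.2 ± 0.09 in Opg-/- (adjusted p = 1.23e-11) and −1.11 ± 0.10 in WT (adjusted p = 2.09e-10). Cav2 had 259, 189.6, 239, 243 and 169 in Opg-/- den, against 498, 475, 523, 457 and 319 in Opg-/- sham, and 215, 168, 190, 184 and 193 in WT den, against 429, 458, 477 and 459 in WT sham, and changed by −1.04 ± 0.12 in Opg-/- (adjusted p = 1.29e-08) and −1.26 ± 0.13 in WT (adjusted p = 1.19e-09). All 3 genes were at less than the lowest sham value in every den library. Nos3, the endothelial nitric oxide synthase, changed by −1.07 ± 0.14 in Opg-/- and −1.12 ± 0.15 in WT, though 25.2% of its exonic bases are shared with Gm15587 on the opposite strand. Gpihbp1, which carries lipoprotein lipase to the capillary lumen, changed by −1.18 ± 0.09 in Opg-/- and −1.16 ± 0.09 in WT. Fabp4, a fatty acid carrier of capillary endothelium and of adipocytes, changed by −0.91 ± 0.09 in Opg-/- and −0.92 ± 0.09 in WT. The 3 of them passed the test in both genotypes.

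**Figure D3:**
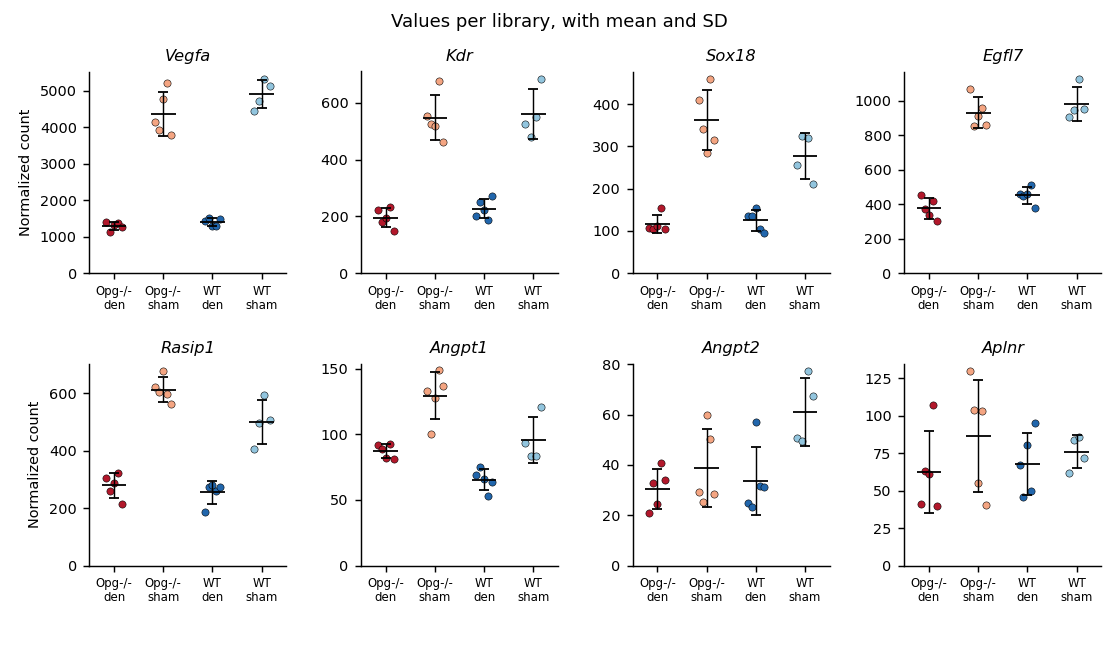
Normalized counts of Vegfa, Kdr, Sox18, Egfl7, Rasip1, Angpt1, Angpt2 and Aplnr in every library (points), with the mean and SD of each group (n = 5, and 4 for WT sham). Den and sham points are apart for Vegfa, Kdr, Sox18, Egfl7, Rasip1 and Angpt1 and overlap for Angpt2 and Aplnr.

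Levels could be ordered between genes only per length of exons. On that scale Aqp1 was the highest member in all 4 groups, with 2054 normalized counts per kb in Opg-/- den, against 4919 in Opg-/- sham, and 2254 in WT den, against 4972 in WT sham. Vegfa had rank 2 in both sham groups and rank 5 in both den groups, with 303 normalized counts per kb in Opg-/- den, against 1019 in Opg-/- sham, and 328 in WT den, against 1146 in WT sham. Vegfb, at 559 in Opg-/- den, against 954 in Opg-/- sham, and 558 in WT den, against 934 in WT sham, had rank 2 in both den groups and rank 3 in both sham groups. The order of the other members was little affected at the top, where Cav1 had rank 4 and Cdh5 rank 6 in all 4 groups. Angpt2 was the lowest member per kb in Opg-/- den (8.28), Opg-/- sham (10.5) and WT sham (16.6), and Flt4 in WT den (8.92).

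Libraries of one group differed in their level over the whole set. The 37 values of a library summed to 17750.4 to 21913 (median 21134) in Opg-/- den, against 40957 to 48851 (median 46855) in Opg-/- sham, and 19594 to 22973 (median 21138) in WT den, against 44082 to 48588 (median 45779.9) in WT sham. The lowest library of Opg-/- den was number 5, where 36 of the 37 genes were below the group mean. The lowest library of Opg-/- sham was also number 5, with 34 of 37 below the group mean. In WT the most members below the group mean were 29 in WT den 4 and 30 in WT sham 1. With any 1 library left out, 35 or 36 members were lower in Opg-/- and 35 or 36 in WT, and the median stayed between −1.13 and −1.0 in Opg-/- and between −1.08 and −0.97 in WT.

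Markers of other cell types are given beside this result, to be read against the 26.4% lower and 28.6% higher of all genes in Opg-/- and the 25.7% and 26.9% in WT. Of the 14 members that are defining endothelial markers, 14 were lower in both genotypes, and their sum was 4147 to 5442 in Opg-/- den, against 9174 to 11687 in Opg-/- sham, and 4558 to 5851 in WT den, against 9704 to 10771 in WT sham. No marker of any list was at 0 throughout. Pericyte and smooth muscle markers, the cells wrapped around vessels, were lower in 10 of 12 cases in both genotypes and higher in 2 in Opg-/- and in 1 in WT, with medians of −1.24 and −1.14. Their sum was 10606 to 12777 in Opg-/- den, against 16569 to 18089 in Opg-/- sham, and 9854 to 12831 in WT den, against 15725 to 16177 in WT sham. Among them Acta2, the actin of smooth muscle, changed by −1.73 ± 0.15 in Opg-/- and −1.31 ± 0.16 in WT, Cnn1 (calponin) by −1.57 ± 0.50 in Opg-/- and −1.81 ± 0.53 in WT and Myh11, the smooth muscle myosin, by −1.51 ± 0.14 in Opg-/- and −1.17 ± 0.15 in WT. Macrophage markers went the other way, and 12 of 12 were higher in Opg-/- and 6 of 12 in WT, or 3 of 12 in WT without WT sham 1 (12 in Opg-/- and 11 in WT with equal totals). The medians were 1.27 and 0.66. Of the macrophage markers 0 passed for a difference between genotypes in the response to denervation (limma, smallest adjusted p = 0.467). In sham 12 of 12 macrophage markers had a lower estimate in Opg-/- than in WT with 0 called (median −0.73), and in den the median was −0.13. Of the 12 markers, 9 had an unadjusted p under 0.05 in sham (limma, 12% of all genes) and 0 in den. The genotypes did not overlap for 3 of them in sham (3.01% of all genes) and for 0 in den. The 12 markers summed to 2863 to 6869.5 in Opg-/- den, against 1310.1 to 2453 in Opg-/- sham, and 2957 to 6614 in WT den, against 2283 to 3466 in WT sham. Cd68, a lysosomal protein of macrophages, averaged 376 ± 52.6 in Opg-/- den, against 24.9 ± 10.4 in Opg-/- sham, and 332 ± 109 in WT den, against 51 ± 10.7 in WT sham (SD).

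Of 5 lymphatic endothelial markers 0 were lower in Opg-/- and 1 in WT, and 2 were higher in both (medians 0.39 and −0.06). Those were Pdpn (podoplanin), which changed by 1.76 ± 0.16 in Opg-/- and 1.67 ± 0.17 in WT, and Prox1, the master factor of lymphatic fate that muscle fibres and satellite cells also express, which changed by 1.0 ± 0.21 in Opg-/- and 0.72 ± 0.23 in WT. The lymphatic list summed to 365 to 787 in Opg-/- den, against 215 to 427 in Opg-/- sham, and 406 to 641 in WT den, against 322 to 517 in WT sham. Adipocyte markers were lower in 1 of 9 cases in Opg-/- and in 7 of 9 in WT (4 of 9 without WT sham 3 or with equal totals), with medians of −0.28 and −1.29 and sums of 1006 to 1158 in Opg-/- den, against 1303 to 3106 in Opg-/- sham, and 539.7 to 1235 in WT den, against 1661 to 2375 in WT sham. Of the adipocyte markers 0 passed for a difference between genotypes in the response to denervation (limma, smallest adjusted p = 0.711). Fibroblast markers were lower in 3 of 10 cases in both genotypes, near the share of all genes, and higher in 2 in Opg-/- and 1 in WT, with sums of 14748 to 32146 in Opg-/- den, against 23499 to 44983 in Opg-/- sham, and 14947 to 29858 in WT den, against 23753 to 38763 in WT sham. Their medians were −0.09 and −0.30. Of the fibroblast markers 1 was lower in Opg-/- without any 1 of Opg-/- den 1, Opg-/- sham 2 and Opg-/- sham 5, and with equal totals 0 were lower in Opg-/- and 1 in WT. Schwann cell markers were lower in 3 of 7 cases in both genotypes (5 of 7 in WT without WT sham 1; medians −0.81 and −1.73). Muscle fibre markers were lower in 6 of 9 cases and higher in 1 in Opg-/-, and lower in 4 and higher in 2 in WT (medians −0.54 and −0.35). With equal totals 4 were lower and 3 higher in Opg-/- and 4 lower and 4 higher in WT, with medians of −0.09 and −0.05. Red blood cell genes were lower in 4 of 5 cases in Opg-/- and in 1 of 5 in WT (medians −1.08 and −0.99), and their den and sham sums overlapped in both genotypes (2378 to 7658 in Opg-/- den, against 4458 to 15560.2 in Opg-/- sham, and 2279.8 to 5491 in WT den, against 4962 to 8970 in WT sham). The number of red blood cell genes called was 0 of 5 in Opg-/- without any 1 of Opg-/- den 3, 4 and 5 and Opg-/- sham 1 and 2, and 0 to 4 of 5 in WT with a library left out, and with equal totals it was 0 in both genotypes. The part of these cell types in the fall of the endothelial genes was not tested.

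The rest of the vascular pathways gave a mixed pattern, described here by lists that do not contain the 37 genes. The counts are to be read against the 26.4% lower and 28.6% higher of all genes in Opg-/-. In WT these shares were 25.7% and 26.9%. With equal library totals they were 13.1% lower and 48.7% higher in Opg-/- and 15.5% and 40.3% in WT. Of 8 other ligands and co-receptors tested (10 listed), 5 were lower and 1 higher in Opg-/-, and 4 were lower and 2 higher in WT (medians −0.74 and −0.56). Vegfd, a ligand of VEGFR3, moved opposite to Vegfa and averaged 370.3 ± 48.8 in Opg-/- den, against 81.8 ± 21.8 in Opg-/- sham, and 363 ± 50.4 in WT den, against 79.5 ± 12.1 in WT sham (SD, normalized counts). It changed by 2.20 ± 0.15 in Opg-/- and 2.18 ± 0.16 in WT, and den and sham did not overlap. Vegfc, the other VEGFR3 ligand, changed by −1.08 ± 0.29 in Opg-/- and −0.74 ± 0.30 in WT, and Nrp1, a co-receptor of VEGF-A, by −0.74 ± 0.16 in Opg-/- and −0.94 ± 0.16 in WT. With equal library totals the counts were 1 lower and 2 higher in Opg-/- and 2 lower and 2 higher in WT, where Vegfc passed in neither genotype and Nrp1 not in Opg-/-.

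Genes of BMP and sphingosine 1-phosphate signalling, which steadies the endothelium, were lower in 11 of 11 cases in Opg-/- and in 8 of 11 in WT, and higher in 0 (medians −0.88 and −0.94, and 7 and 6 lower with equal totals). S1pr3 changed by −1.62 ± 0.18 in Opg-/- and −1.2 ± 0.19 in WT, Bmp6 by −1.25 ± 0.09 in Opg-/- and −1.21 ± 0.09 in WT and Smad6 by −0.97 ± 0.14 in Opg-/- and −1.13 ± 0.15 in WT. Of 10 genes of Notch signalling in vessels, 5 were lower and 1 higher in Opg-/-, and 7 were lower and 1 higher in WT (medians −0.69 and −1.05), while with equal totals 5 and 6 were lower and 2 higher in each. The arterial receptor Notch4 changed by −1.44 ± 0.08 in Opg-/- and −1.18 ± 0.08 in WT and its ligand Dll4, which restrains sprouting, by −1.42 ± 0.13 in Opg-/- and −1.34 ± 0.13 in WT. Dll1, a ligand also made by muscle precursors, rose by 3.03 ± 0.16 in Opg-/- and 3.16 ± 0.17 in WT. Of 15 further transcription factors tested (16 listed), 11 were lower in each genotype, with 0 higher in Opg-/- and 1 in WT (medians −0.95 and −0.89). With equal totals 9 were lower in Opg-/- and 10 in WT, and 3 were higher in each. Klf2, the factor that endothelium expresses under flow, averaged 491 ± 116 in Opg-/- den, against 1454 ± 247 in Opg-/- sham, and 563 ± 90.3 in WT den, against 1679 ± 359 in WT sham (SD). It changed by −1.58 ± 0.17 in Opg-/- and −1.56 ± 0.18 in WT on the log2 scale. Gata2 changed by −1.58 ± 0.13 in Opg-/- and −1.39 ± 0.14 in WT and Tal1 by −1.18 ± 0.20 in Opg-/- and −1.43 ± 0.21 in WT.

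Another 22 endothelial surface and junction genes were lower in 16 cases and higher in 1 in each genotype (medians −0.91 and −0.77), and with equal totals in 13 and 3 cases in Opg-/- and in 14 and 1 in WT. Examples among those lower in both genotypes are Adgrf5 (−1.15 ± 0.10 in Opg-/- and −1.24 ± 0.11 in WT), Gja5, the connexin of arterial endothelium (−1.13 ± 0.18 in Opg-/- and −1.01 ± 0.19 in WT), and Ephb4, the venous ephrin receptor (−1.13 ± 0.09 in Opg-/- and −1.09 ± 0.09 in WT). The 12 genes of lipid handling in capillaries were lower in 10 cases in Opg-/- and in 8 in WT, and higher in 1 in each (medians −0.91 and −0.81; 7 and 6 lower with equal totals, and 3 higher in each). Lpl, the lipoprotein lipase that Gpihbp1 carries, averaged 2488 ± 277 in Opg-/- den, against 9117 ± 832 in Opg-/- sham, and 2500.3 ± 144 in WT den, against 8004 ± 1045 in WT sham (SD, normalized counts) and changed by −1.87 ± 0.08 in Opg-/- and −1.67 ± 0.09 in WT. Tcf15 changed by −1.48 ± 0.15 in Opg-/- and −1.53 ± 0.16 in WT and Cavin2, a coat protein of caveolae, by −1.24 ± 0.09 in Opg-/- and −1.25 ± 0.09 in WT.

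Lists of vessel growth and of its restraint held both directions, as all genes did. The counts of the sprouting list were near the shares of all genes given above and are not read as a response of that list. Of 12 tip cell and sprouting genes, 4 were lower and 3 higher in Opg-/-, and 3 were lower and 2 higher in WT (medians −0.09 and −0.34), while with equal totals 3 were lower and 4 higher in Opg-/- and 2 lower and 2 higher in WT. Fgf2 changed by −1.56 ± 0.13 in Opg-/- and −1.26 ± 0.14 in WT, the chemokine Cxcl12 by −1.05 ± 0.11 in Opg-/- and −1.16 ± 0.11 in WT and the netrin receptor Unc5b by −0.66 ± 0.21 in Opg-/- and −0.77 ± 0.22 in WT, the last of which passed in neither genotype with equal totals. Of 11 genes listed as angiogenesis inhibitors or as relatives of them, 4 were lower and 2 higher in Opg-/-, and 5 were lower and 2 higher in WT (3 lower without WT sham 3, and 4 higher in Opg-/- without Opg-/- den 1). The medians were −0.23 and −0.49. With equal totals 1 was lower and 4 higher in Opg-/-, and 3 were lower and 3 higher in WT. Those higher in both were Vash2 (1.30 ± 0.26 in Opg-/- and 1.46 ± 0.28 in WT) and Angptl2 (1.35 ± 0.16 in Opg-/- and 1.18 ± 0.17 in WT). Vash2 and Angptl2 were listed as relatives of inhibitors and are not read here as inhibitors themselves. Sema3a changed by −1.02 ± 0.31 in Opg-/- and −0.95 ± 0.33 in WT and did not pass with equal totals. Of 15 hypoxia genes and regulators of Vegfa, 8 were lower and 6 higher in Opg-/-, and 8 were lower and 4 higher in WT (medians −0.39 and −0.32), while with equal totals 7 were lower in each, 7 higher in Opg-/- and 6 higher in WT. Car9, a carbonic anhydrase induced in hypoxia, averaged 2.97 ± 3.01 in Opg-/- den, against 70.3 ± 17.8 in Opg-/- sham, and 3.46 ± 1.51 in WT den, against 51.1 ± 17 in WT sham (SD). Egln3, a prolyl hydroxylase that marks HIF for decay, rose by 1.73 ± 0.17 in Opg-/- and 1.88 ± 0.18 in WT, and Hif3a changed by −1.28 ± 0.22 in Opg-/- and −1.66 ± 0.24 in WT. Of 8 cell division genes 1 was lower in Opg-/- (Mcm2, −0.54 ± 0.12, adjusted p = 0.000428), which did not pass with equal totals, and 1 was higher in WT (medians 0.05 and −0.23). Other counts of 0 to 2 in these lists changed by 1 with some libraries left out.

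**Figure D4:**
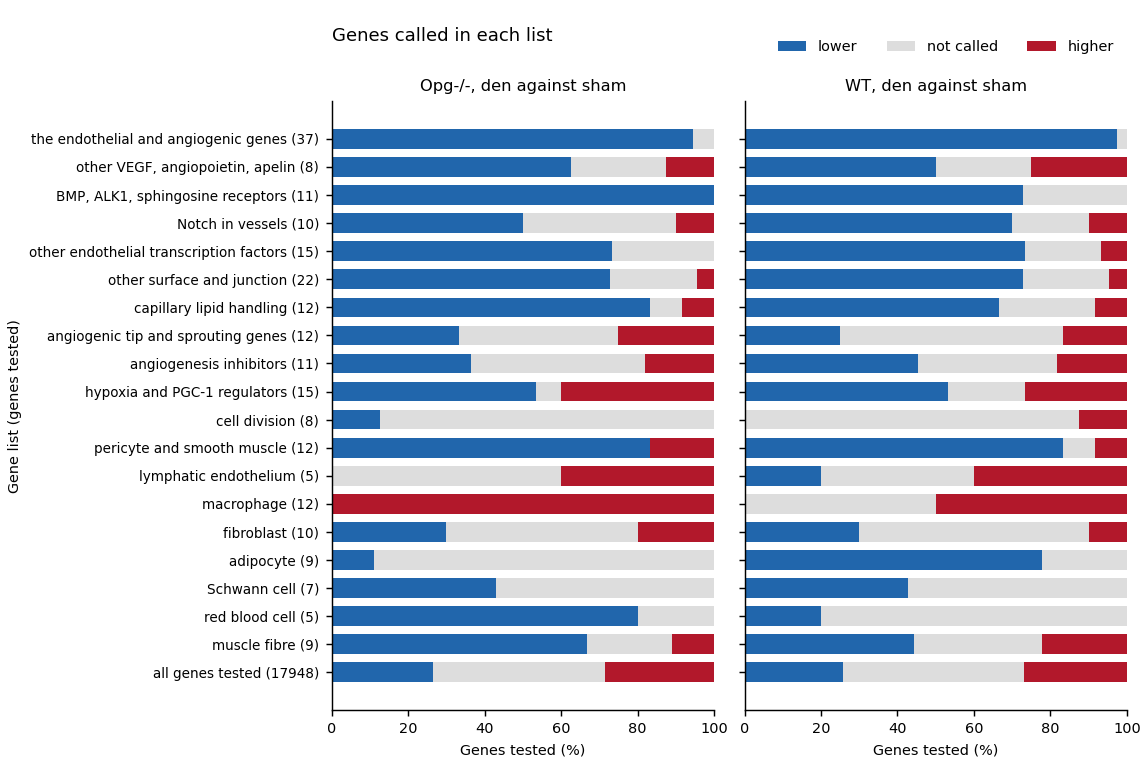
Share of the tested genes of each list that were lower, not called or higher in den than in sham (adjusted p under 0.05, limma), for Opg-/- and WT mice, with all genes tested as the last row. The top row holds the 37 members, of which 35 in Opg-/- and 36 in WT are lower. The lists of sprouting genes, of inhibitors with their relatives and of hypoxia genes hold both directions.

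In the comparison of genotypes, 0 of the 37 genes differed between libraries labelled Opg-/- and WT at an adjusted p under 0.05 with limma. This held in den, where 0.0613% of all genes passed, and in sham, where 0.106% did. At an unadjusted p under 0.05 there were 2 members in den (6.89% of all genes) and 4 in sham (12%). The limma-voom fit on recovered reads called 0 members too, with 2 in den and 5 in sham unadjusted. The median difference of the members was 0.00 in den and 0.02 in sham, and single genes ranged from −0.29 to 0.42 in den and from −0.71 to 0.44 in sham. The 95% interval of a member was, at the median, 0.24 wide to each side in den and 0.26 in sham. That interval is for a single gene and is not adjusted, so it is not the limit of what the test could call. Estimates as far from 0 as 0.42 in den and −0.71 in sham did not pass, so differences larger than the interval could also be missed. Setting library totals equal moved the median over all genes by −0.129 in the sham comparison, that of the members was −0.12, and again 0 members passed.

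Angpt1 had the smallest unadjusted p of the members in both limbs. As listed above, its 5 Opg-/- den values (81.4 to 92.4) were all above the 5 WT den values (53.2 to 75.1), and it was the only member whose genotypes did not overlap in den (1.47% of all genes), while 0 members were apart in sham (3.01% of all genes). The difference of Angpt1 was 0.42 ± 0.14 in den (adjusted p = 0.428) and 0.44 ± 0.15 in sham (adjusted p = 0.252). Angpt2 differed by −0.71 ± 0.28 in sham (adjusted p = 0.324), where 2 of 5 Opg-/- values were within the WT range. Rasip1 differed by 0.30 ± 0.12 in sham (adjusted p = 0.341) and Sox18 by 0.38 ± 0.16 in sham (adjusted p = 0.363). Egfl7 differed by −0.27 ± 0.10 in den (adjusted p = 0.535). None of these passed, and all came from genes whose groups overlapped except Angpt1 in den.

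Whether denervation acted differently on these genes in the knockout was asked with the interaction of genotype and denervation, the log2 fold change of den over sham in Opg-/- minus that in WT. Of the 37 members, 0 passed (0.00557% of all genes did), and 1 had an unadjusted p under 0.05 (6.96% of all genes) with 0 in limma-voom. The fall was larger in Opg-/- for 23 members and larger in WT for 14, with a median difference of −0.04 beside −0.014 over all genes. Equal library totals moved the median of all genes by 0.139 and brought that of the members to 0.10, so the sign of the members' median depended on the scaling. Relative to the median of all genes, the members' median was −0.02. Sox18 had the smallest p, with an interaction of −0.47 ± 0.22 (95% interval −0.93 to −0.02, adjusted p = 0.711). Angpt2 had the largest estimate, 0.61 ± 0.38 (95% interval −0.17 to 1.4, adjusted p = 0.74). At the median the 95% interval reached 0.36 to each side, so a difference between the genotypes of about that size in the response of a single gene is not shown to be absent.

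**Figure D5:**
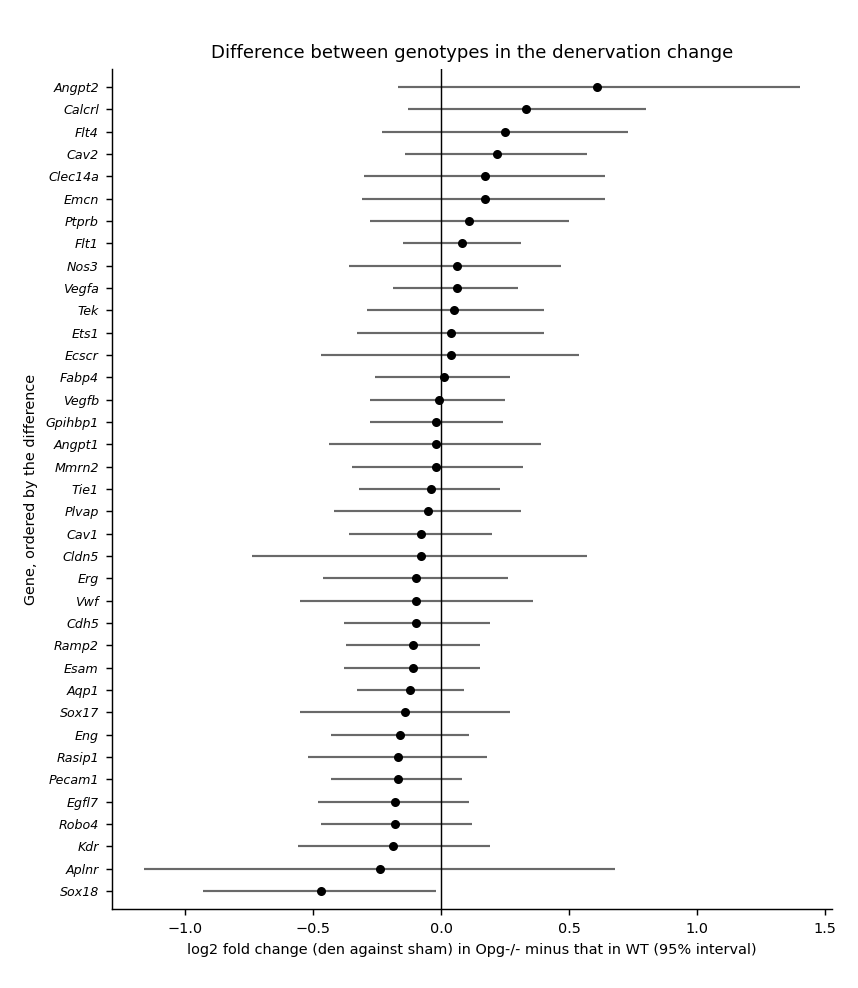
Interaction of genotype and denervation for each of the 37 genes (log2 fold change of den over sham in Opg-/- minus that in WT) with its 95% interval (limma). The estimates lie between −0.47 (Sox18) and 0.61 (Angpt2), and the interval of Sox18 alone does not include 0.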

How the data were processed

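RNA of whole gastrocnemius was sequenced as libraries without strand information (Illumina NovaSeq). Per the submitters' processing notes the authors used STAR, RSEM and mm10. The deposited values are a signal: RSEM estimated counts that the authors divided by 1 size factor per library. Reads recovered from the steps of the values came out whole (within 0.0001 reads) for 87.05% to 88.12% of values, so no count model was used as the main test. Counts without strand cannot separate overlapping genes, and exon overlaps were taken from GENCODE M21.

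The test covered genes that reached a value of 1 in 4 or more libraries. Log2(value + 1) was fitted with limma 3.58.1 (R 4.3.3, trend and robust options) in 1 model of 4 groups over 19 libraries, and p-values were adjusted by Benjamini-Hochberg over all genes tested. A gene was called at an adjusted p under 0.05. Nothing in the labels says which limbs came from one mouse, so p-values measure the spread between these libraries. Tables were made with Python 3.11.15 and pandas 2.3.3, and the fits were tested on simulated data. Row names that occur more than once in the table were not used for lists.

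Values in every library are given for the 3 members with the largest change in each role, for members not called in both genotypes, for members with an unadjusted p under 0.05 in a comparison of genotypes, and for Vegfa and Kdr. Pathway and cell type lists are given as counts, with up to 3 genes named, taken from the largest changes in either genotype among genes called in both. The members and lists were chosen with earlier results of these data known. The alternatives were another pseudocount (0.1), no filter or a stricter one (10), equal library totals, limma-voom on recovered reads, the compared groups alone, the near-identical libraries kept separate, a replicate block, a limit of 1 on the log2 fold change, and each library left out. Members without a RefSeq promoter in the table were not searched.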

Additional observations from a re-analysis of the deposited data

Results flagged for a closer look

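In 6 of 148 combinations of member and group, 1 library stood far from the others of its group, where chance gives about 1 in 20. Cldn5 was at 537 normalized counts in WT sham 5, with 236 to 269.5 in the other WT sham libraries. Rasip1 was at 186 in WT den 1, with 261 to 281 in the others. Eng was at 838 in WT den 5, with 665 to 691 in the others. Angpt2 was at 56.9 in WT den 3, with 23.4 to 31.7 in the others. Ptprb was at 622 in Opg-/- den 5, with 827 to 889 in the others. Sox18 was at 154 in Opg-/- den 4, with 104 to 112 in the others. The 6 values came from 6 libraries and 6 genes, and only that of Cldn5 decided a call.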

How the results depend on the processing

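Of 2487 values of 89 results on single members, over 9 other settings and 19 fits with a library left out, 2420 kept their direction and their side of the threshold, 53 no longer passed, 1 passed only there (Aplnr in Opg-/-) and 13 changed sign. With equal library totals 2289 genes were lower and 8509 higher in den than in sham in Opg-/-, with the main counts at 4736 and 5125, and 2704 were lower in WT, with the main count at 4604. In limma-voom on recovered reads 2265 were lower and 8469 higher in Opg-/- and 2753 were lower in WT. The median of the members was then −0.62 in Opg-/- in both settings, −0.70 in WT with equal totals and −0.68 in WT in limma-voom. Cldn5, Clec14a, Ecscr, Plvap, Angpt1 and Calcrl in Opg-/- and Cldn5, Angpt1 and Angpt2 in WT did not pass with equal totals. Estimates that changed sign were small. Angpt2 in Opg-/- became 0.16 with equal totals and in limma-voom, Aplnr in Opg-/- became 0.01 in limma-voom, Aplnr in WT became 0.09 with equal totals and 0.13 in limma-voom, and the interaction of Angpt1 became 0.13 with equal totals and 0.12 in limma-voom. With a library left out, the difference of Angpt2 between genotypes in den ranged from −0.21 to 0.11 and the interaction of Angpt1 from −0.14 to 0.04.

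With a limit of 1 on the log2 fold change, 1828 genes were lower and 2055 higher in Opg-/-, 1826 lower and 1721 higher in WT, and 22 members were lower in Opg-/- and 18 in WT. Between genotypes in den 11 genes passed, 4 with that limit, 21 in limma-voom and 4 to 15 with a library left out. In sham 19 passed, 11 with that limit, 32 with equal totals, 56 with the near-identical libraries kept separate and 2 (without WT sham 3) to 114 (without WT sham 1) with a library left out. For the interaction 1 gene passed, and 0 with that limit, in limma-voom, without the filter, with the pseudocount of 0.1 or with the near-identical libraries kept separate, and 0 to 3 with a library left out. The count of members was 0 in each of these. Cldn5 in WT also lost its call in the fit of the compared groups alone (adjusted p = 0.127).

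Correlations of the deviations were small for libraries with the same number (r −0.038 to 0.057 over 9 pairs) and lay within the range of other pairs (−0.08 to 0.091). Same-numbered pairs were all positive in Opg-/- (0.012 to 0.045) and of both signs in WT (−0.038 to 0.057), where sham 1 is the averaged pair. Of the den libraries, 6 of 9 correlated best with their own number. That count includes Opg-/- den 2, which was tied at 0.019 with sham 2, 3 and 4. Whether a number marks a mouse was not settled. With the number as a replicate block, 35 members were lower in Opg-/- and 36 in WT, and over all genes 4787 were lower and 5174 higher in Opg-/- and 4647 lower and 4864 higher in WT, so the block changed no call of a member. Depth limits the members with few reads, Angpt2 above all, and the comparison of genotypes, where intervals reach 0.24 to 0.26 to each side at the median. The cause of the differences between settings was not tested.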
